A study of Mus musculus with 42 samples.

Results

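The genes described here are 10 transcripts by which blood vessel endothelium is usually recognised: Pecam1, Cdh5, Kdr, Flt1, Tek, Tie1, Esam, Cldn5, Plvap and Eng. They were taken by name, with no threshold on a measured value, and make up 10 of the 26811 genes in the count table. The choice was made with earlier results of these data known. The table covers 42 MC38 tumors, 1 tumor per mouse, in 5 treatment groups. All 10 genes passed the filter on low counts. In build GRCm38 Pecam1 lies at chr11:106654217-106750628, Cdh5 at chr8:104101625-104144511, Kdr at chr5:75932827-75978458, Flt1 at chr5:147561604-147726011 and Tek at chr4:94739289-94874976. Tie1 lies at chr4:118471191-118490061, Esam at chr9:37528078-37538319, Cldn5 at chr16:18776847-18778262, Plvap at chr8:71497765-71511752 and Eng at chr2:32646595-32682669, and counts cover all exons of each gene.

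Endothelial cells line blood vessels and hold together through junction proteins, chiefly VE-cadherin (encoded by Cdh5), PECAM-1, the adhesion molecule ESAM and claudin-5. They respond to VEGF ligands through VEGFR2 (Kdr), with VEGFR1 (Flt1) binding the same ligands and largely holding them back, and to angiopoietins through TIE2 (Tek) and its partner TIE1. Endoglin (Eng) is a co-receptor for BMP and TGF-beta ligands, and PLVAP forms the diaphragms of fenestrae and caveolae. Tumor vessels are leaky and unevenly covered by pericytes, and leukocytes enter the tumor across them. Pecam1 is also made by monocytes, neutrophils and platelets, and Eng by activated macrophages, so neither is confined to vessels.

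MC38 is a colon carcinoma line of C57BL/6J origin whose cells were injected under the skin of female F1 mice, CC075/UncJ x C57BL/6J, aged 8 to 12 weeks. All mice were thus of the same cross and bore the same tumor. Mice in the isotype control group (n = 5) and the aPD1 group (n = 6) received isotype antibodies in place of both blocking antibodies. The aPD1 + aGMCSF group (n = 9) received 100 µg of an antibody to the cytokine GM-CSF, and the aPD1 + aIL2RB group (n = 11) received 200 µg of an antibody to the interleukin-2 receptor beta chain (clone TM-Beta 1). Both blocking antibodies were given in the aPD1 + aGMCSF + aIL2RB group (n = 11). Blocking or isotype antibodies were given repeatedly until tumors measured 75 to 110 mm3. Mice then received 200 µg of aPD1 (clone 29F.1A12), or in the isotype control group 200 µg of its isotype antibody (clone 2A3), and tumors were taken 48 h later. Every tumor of the 4 aPD1 groups was thus examined at a single early time, and no group received a blocking antibody without aPD1.

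Sequencing depth, as total counts per tumor, lay between 7155486 and 24101674 (median 20215383). The tumors parted into 2 sets along their replicate numbers, 22 in the first and 20 in the second, which no label names, and each group holds tumors of both. The sets were known from an earlier analysis of these same data. Tests between them are therefore not independent of how they were found. Isotype control replicate 4 had the lowest level of Cdh5, Kdr, Tek and Eng of all 42 tumors. It also had the lowest share of counts in 5 rRNA genes, which ranged from 1.72% to 17.9% over the tumors, and the results that change without it are named below. Among markers of other cells, Ptprc (all leukocytes), Adgre1 (macrophages), Pf4 (platelets), Col1a1 (fibroblasts), Hbb-bs (red cells) and Shisal2b (MC38 cells) had counts in all tumors, Adipoq (fat) was at 0 in 9 tumors and Acta1 (skeletal muscle) in 2. These are bulk profiles, in which fewer endothelial cells and less RNA per endothelial cell cannot be told apart.

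Measured per length of exon sequence, the genes covered a wide range. Levels are given as CPM, counts scaled to a common library size and normalised by TMM, and between genes as CPM per kilobase. Cdh5 was the most abundant, with 15.6 ± 2.28 CPM per kilobase (mean ± SD, n = 42), followed by Plvap (12.3 ± 2.72), Eng (9.50 ± 1.68) and Pecam1 (9.07 ± 1.8). Eng and Pecam1 differed by less than their spread, and so did the neighbours Esam (4.37 ± 0.903), Kdr (3.60 ± 0.659), Flt1 (3.41 ± 0.566), Cldn5 (2.79 ± 0.857) and Tie1 (2.60 ± 0.579). Tek stood lowest, at 0.656 ± 0.270 CPM per kilobase. The raw counts behind these levels were lowest for Tek (21 to 116 per tumor) and Cldn5 (34 to 151), and between 114 and 1999 for the other genes. Tek also varied most, with the highest tumor 5.01 times the lowest, against 1.90 times for Eng.

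Tumors high in one gene tended to be high in the others. Over the 42 tumors, the 45 pairs of genes had a median Pearson correlation of log2 CPM of 0.46 and a range from -0.14 to 0.75. After subtraction of group means the median was 0.43, the most alike pairs being Pecam1 with Plvap (0.73), Plvap with Eng (0.68) and Pecam1 with Eng (0.66). Cdh5 and Kdr followed at 0.65. Cldn5 went with Flt1 (0.53) but had values near 0 against Eng (0.07), Tek (-0.04) and Kdr (-0.05). These correlations describe tumors that share library preparation and whole-tumor composition, and carry no test.

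The genes outside the 10 whose pattern was most like their mean level were mostly vascular too. Ranked by Spearman's rho over 42 tumors among 12432 genes, they were Mcam (0.87), Col15a1 (0.85), Ptprb (0.85), S1pr1 (0.84), Podxl (0.83), Adgrf5 (0.81), Col4a2 (0.79), Ece1 (0.79), Erg (0.79) and Nid1 (0.77). Ptprb encodes the phosphatase that acts on TIE2, S1pr1 a receptor for sphingosine-1-phosphate, Erg an endothelial transcription factor, and Col15a1, Col4a2 and Nid1 components of basement membrane. Without the 2 tumors farthest from the median, Pearson's r ranged from 0.72 to 0.85 over these genes. They were chosen for this likeness, so that no test applies to it.

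**Figure D1:**
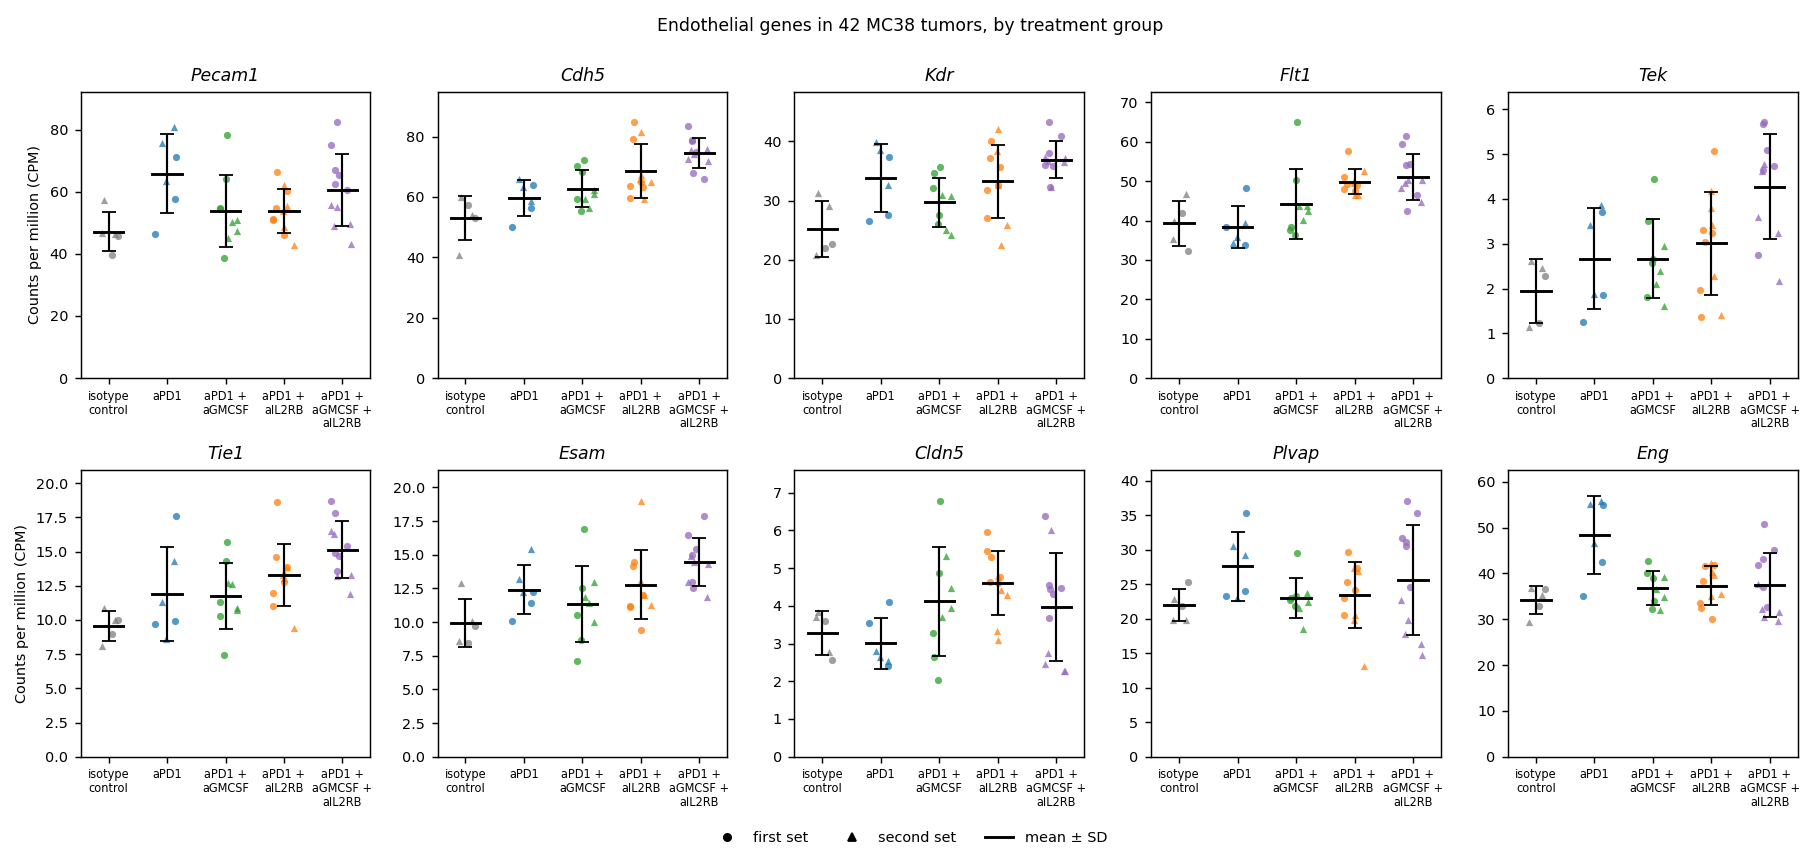
Level of each of the 10 endothelial genes (CPM, linear axis from 0) in every tumor, by treatment group. Circles are tumors of the first set and triangles of the second, and the bars give mean ± SD. Eng and Pecam1 had their highest group mean with aPD1, and Cdh5, Flt1, Kdr, Tek, Tie1 and Esam theirs with aPD1 + aGMCSF + aIL2RB.

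The comparison of aPD1 with isotype control asks which endothelial transcripts changed within 48 h of checkpoint blockade. Eng, Pecam1 and Kdr rose, while the junctional genes Cdh5, Esam and Cldn5 and the receptors Flt1, Tek and Tie1 did not pass the test. A gene was called when its adjusted p in edgeR's quasi-likelihood test, over the 16932 genes tested, was under 0.05. Of the 10 genes, 3 were called, all higher. Over all genes tested 8.71% were called, and 6.17% were called higher.

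Eng stood at 32.8, 36.5, 35.2, 29.4 and 36.9 CPM in the 5 isotype control tumors. With aPD1 it ran from 35 through a median of 50.8 to 55.8 CPM. All but the lowest aPD1 tumor lay above every isotype control tumor. The mean went from 34.2 ± 3.11 to 48.3 ± 8.51 CPM, and the log2 fold change was 0.50 ± 0.12 (SE, adjusted p = 0.0076).

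Pecam1 in isotype control tumors was 39.6, 45.8, 46.4, 46.7 and 57.4 CPM. The lowest, median and highest aPD1 tumors had 46.4, 67.4 and 80.7 CPM, so the groups overlapped at the low end of aPD1. Its log2 fold change was 0.48 ± 0.15 (adjusted p = 0.0331). Kdr, the main signalling receptor for VEGF-A, measured 22, 22.6, 29.1, 20.8 and 31.3 CPM in isotype control tumors. In aPD1 tumors it ranged from 26.6 to 39.9 CPM with a median of 35, and its log2 fold change was 0.42 ± 0.13 (adjusted p = 0.0355). The groups overlapped for Kdr as well. Under 12 other settings the call of Pecam1 was kept in 9 and that of Kdr in 6. The call of Pecam1 ended without aPD1 replicate 1, 4 or 6 or isotype control replicate 1, 2, 3 or 4 (adjusted p 0.0618 to 0.107). That of Kdr ended without aPD1 replicate 1, 4, 5 or 6 or isotype control replicate 1, 2 or 4 (adjusted p 0.0638 to 0.121), whereas Eng was called without each of the 42 tumors and lost with the first set alone (0.35, adjusted p = 0.441).

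Among the genes that were not called, Flt1 had nearly the same mean in both groups, 39.3 ± 5.65 CPM in isotype control and 38.3 ± 5.35 in aPD1 tumors. Its log2 fold change had a 95% interval from -0.25 to 0.18. For Cdh5 the interval ran from -0.01 to 0.35. The intervals of Tek (-0.15 to 1.09), Tie1 (0.00 to 0.63), Esam (0.02 to 0.62) and Plvap (-0.03 to 0.69) lay mainly above 0, and none of these genes passed the test over all genes. Cldn5 had an interval from -0.63 to 0.36.

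Transcripts of other cells moved with the same comparison. All 4 leukocyte markers and 9 of 10 macrophage markers rose, and the summed macrophage level went from 2940 to 3520 CPM in isotype control tumors to 3410 to 6480 CPM in aPD1 tumors. Ptprc rose with them, from 159 ± 12.7 to 312 ± 82.7 CPM. T and NK cell markers stood at a summed 57.2 to 68.2 CPM in isotype control and 87.7 to 209 CPM in aPD1 tumors. None of these 8 markers was called. Of 8 skeletal muscle markers 7 rose, from a summed 0.327 to 39.3 CPM to 0.861 to 936 CPM. Of 8 fibroblast markers 3 rose and 1 fell, and Col1a1 had 407 ± 94.7 CPM in isotype control and 727 ± 330 CPM in aPD1 tumors. The summed fibroblast level was 2650 to 5220 CPM and 3510 to 4670 CPM. The summed level of 8 platelet markers was 10.7 to 18.7 CPM in isotype control and 13.7 to 27.9 CPM in aPD1 tumors, and none of the 6 tested was called. The share of counts in the 5 rRNA genes was 1.72% to 8.55% in isotype control and 4.57% to 17.9% in aPD1 tumors, and without these genes Eng, Pecam1 and Kdr were still called. The part of the other cells in the rise of Eng, Pecam1 and Kdr was not tested.

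In the wider vascular lists, 82 genes grouped as ligands, receptors, surface and matrix genes, transcription factors, leukocyte-recruiting genes, lymphatic genes and mural cell genes, 76 were tested. The lists were tested gene by gene. With aPD1, 11 rose and 4 fell against isotype control, 19.7% of those tested, where 8.71% of all genes were called and 6.17% were higher. The median log2 fold change of the lists was 0.20 beside -0.002 over all genes. The number called, 15, was 9 without aPD1 replicate 4 and 23 without aPD1 replicate 2. Vegfa, the main ligand of Kdr and Flt1, was the 1 ligand of 11 that passed. It fell from 293 ± 22.9 to 232 ± 28.8 CPM, a log2 fold change of -0.34 ± 0.08 (adjusted p = 0.00785). Angpt2, a TIE2 ligand released by activated endothelium, changed by 0.49 ± 0.17 on the log2 scale and was not called (adjusted p = 0.0585), nor were Angpt1 and Pgf.

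Among receptors Notch1 (log2 fold change 0.66), Acvrl1 (0.79), the receptor kinase that works with endoglin, and the VEGF co-receptor Nrp1 (0.26) rose, and the semaphorin receptor Plxnd1 (-0.33) fell. The call of Nrp1 was kept under 6 of 12 other settings and in 16 of 42 omissions of a single tumor. Acvrl1 ranged from 0.38 to 1.13 over other settings and was called in 11 of 12. Flt4, the receptor for VEGF-C, was not called. Of 20 surface and matrix genes 2 rose, Nid1 (0.52), a basement membrane protein, and Cd93 (0.47). The transcription factors Fli1 (0.60) and Lmo2 (0.46) rose and Foxf1 (-0.30) fell. The call of Lmo2 was kept under 7 of 12 other settings. Fli1, Lmo2 and Notch1 are also used by blood cells. The part of leukocytes and macrophages, whose markers rose here, in the changes of the wider lists was not tested. Icam1, to which leukocytes bind on activated endothelium and which leukocytes themselves carry, rose by 0.94 ± 0.22 on the log2 scale, from 18.7 ± 2.18 to 36 ± 6.23 CPM.

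Mural cells, the pericytes and smooth muscle around vessels, gave 3 genes higher and 1 lower of 10. Acta2 (1.63), Myh11 (1.33) and Des (2.73 on the log2 scale) encode contractile and filament proteins and rose, and Des is also a skeletal muscle gene. Some fibroblast and skeletal muscle markers rose in the same comparison, and the part of those cells in these changes was not tested. Over omissions of a single tumor the change of Des ranged from 1.78 to 2.97, and its call was kept in 41 of 42. Kcnj8, a potassium channel subunit of pericytes, fell by 0.70 on the log2 scale (adjusted p = 0.0494), a call kept under 3 of 12 other settings and in 10 of 42 omissions of a single tumor.

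When a blocking antibody was added to aPD1, the genes called did not all move the same way. How many were called was near the share over all genes, so that the counts do not set the 10 apart. Eng was lower than with aPD1 alone in all 3 groups given a blocking antibody, Flt1 and Cdh5 were higher in both groups given aIL2RB, and Cldn5 was higher with aPD1 + aIL2RB. With aPD1 + aGMCSF, 1 of the 10 genes was called, Eng, where 13.5% of all genes were called and 8.75% were lower. With aPD1 + aIL2RB 3 were higher and 1 lower where 27.4% of all genes were called, 13% higher and 14.5% lower. With both antibodies 2 were higher and 1 lower where again 27.4% of all genes were called, 13.1% higher and 14.3% lower. These 3 comparisons share the 6 aPD1 tumors, as does the comparison with isotype control, so that their values are not independent of one another.

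Eng had a range of 32 to 42.8 CPM with aPD1 + aGMCSF (median 36.5), 30 to 42.2 with aPD1 + aIL2RB (median 38.3) and 29.5 to 50.8 with both (median 37). Its median with aPD1 alone, 50.8 CPM, was reached by no tumor given a single blocking antibody, and the groups still overlapped because the lowest aPD1 tumor had 35 CPM. The log2 fold changes against aPD1 were -0.40 ± 0.10 (adjusted p = 0.00798), -0.37 ± 0.10 (adjusted p = 0.00373) and -0.37 ± 0.10 (adjusted p = 0.00411). Eng was called in each of these comparisons without any 1 of the 42 tumors. With the first set alone it was called in none of them (-0.23, -0.28 and -0.08), and with the second set alone the changes were -0.58, -0.46 and -0.72.

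Flt1 followed another course. Its lowest, median and highest levels were 33.9, 37.1 and 48.2 CPM with aPD1, 36.2, 42.4 and 64.9 with aPD1 + aGMCSF, 46.5, 49.3 and 57.6 with aPD1 + aIL2RB, and 42.4, 50.3 and 61.4 with both. Only the highest aPD1 tumor reached the range of the aPD1 + aIL2RB group. The log2 fold change against aPD1 was 0.38 ± 0.09 with aIL2RB (adjusted p = 0.0018) and 0.42 ± 0.09 with both antibodies (adjusted p = 0.000749). With aGMCSF it was 0.20 ± 0.10 and was not called (adjusted p = 0.157).

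Cdh5, which encodes the cadherin of endothelial junctions, had group means of 53.1 ± 7.36 CPM in isotype control, 59.7 ± 5.92 in aPD1, 62.7 ± 6.16 in aPD1 + aGMCSF, 68.5 ± 8.88 in aPD1 + aIL2RB and 74.5 ± 4.92 in aPD1 + aGMCSF + aIL2RB tumors. Against aPD1, the change was 0.20 ± 0.08 on the log2 scale with aIL2RB (adjusted p = 0.0473) and 0.32 ± 0.08 with both (adjusted p = 0.00143). The first of these calls was lost without any of 19 single tumors and under 8 of 12 other settings. With both antibodies the lowest tumor had 66.0 CPM, as had the highest aPD1 tumor, so that the groups met at that value.

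Cldn5, the claudin that seals endothelial tight junctions, ran from 2.41 to 4.10 CPM with aPD1 and from 3.10 to 5.95 CPM with aPD1 + aIL2RB. The log2 fold change was 0.62 ± 0.21 (adjusted p = 0.0278), and the call was lost without aPD1 replicate 3, 4, 5 or 6 (adjusted p 0.0562 to 0.0711). It was not called with both antibodies (0.40 ± 0.21, adjusted p = 0.17) or with aGMCSF (0.46 ± 0.22, adjusted p = 0.172). Tek and Tie1, the angiopoietin receptor and its partner, came near the threshold with both antibodies. Tek changed by 0.66 ± 0.26 (adjusted p = 0.0571) and Tie1 by 0.34 ± 0.13 (adjusted p = 0.0514), and both were called with library size as the sole normalization.

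**Figure D2:**
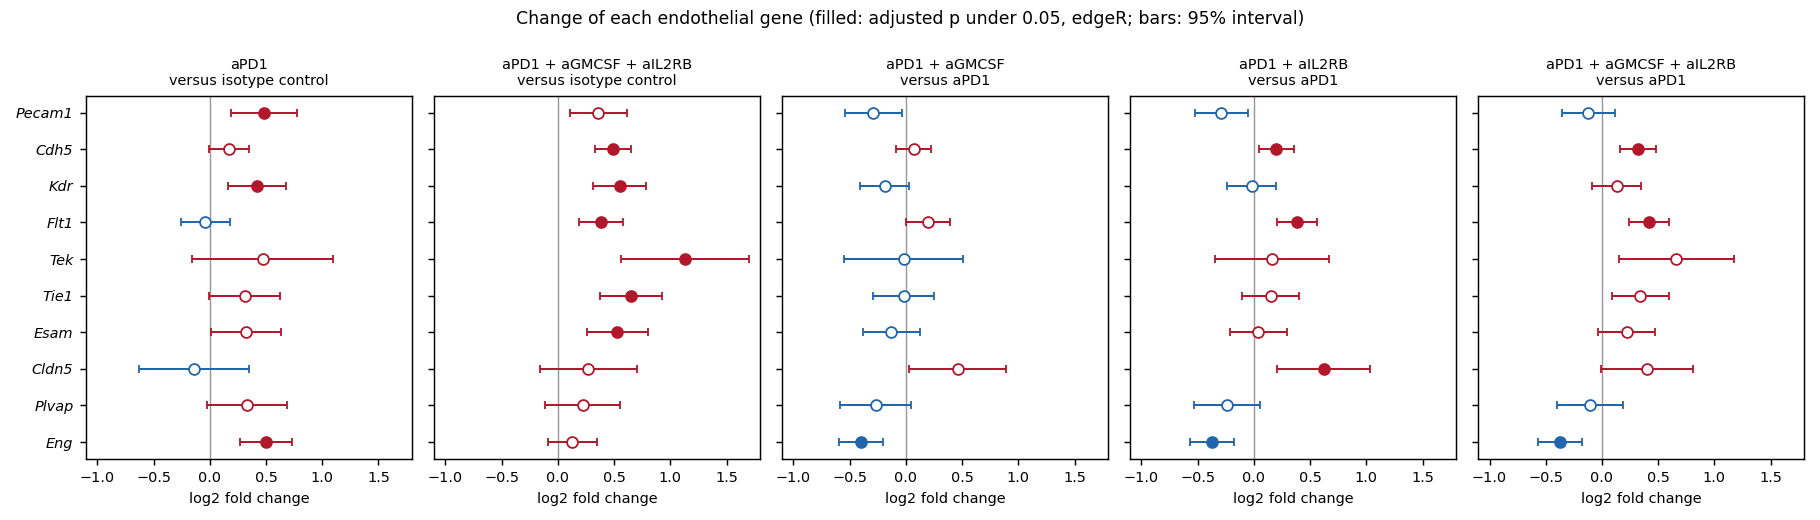
Log2 fold change of each gene in 5 comparisons, with 95% intervals. Filled points have an adjusted p under 0.05 in edgeR. Eng is higher with aPD1 than with isotype control and lower with each blocking antibody than with aPD1, while Flt1 and Cdh5 are higher with aIL2RB than with aPD1.

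The leukocyte transcripts fell in the same 3 comparisons with aPD1. All 4 leukocyte markers were lower in each, and 9, 8 and 8 of 10 macrophage markers were lower with aGMCSF, aIL2RB and both. The summed macrophage level ranged from 2590 to 3140 CPM with aPD1 + aGMCSF, from 2420 to 3350 with aPD1 + aIL2RB and from 2020 to 4310 with both. T and NK cell markers fell in 8 of 8 genes in both groups given aIL2RB and in 2 of 8 with aGMCSF. The platelet marker Ppbp was lower in all 3 comparisons (-1.66 with aGMCSF, -1.12 with aIL2RB and -1.5 with both). Pf4 was lower with aGMCSF alone (-0.67), and the other platelet markers tested were not called. Of 8 fibroblast markers 1 rose and 2 fell with aGMCSF, 3 rose and 4 fell with aIL2RB, and 4 rose and 1 fell with both. Skeletal muscle markers fell in 7 of 8 with aIL2RB, in 1 with both and in 0 with aGMCSF, where their summed level still ranged from 1.45 to 268 CPM. Shisal2b, the MC38 marker, was 15.1 ± 5.11 CPM with aPD1 and 24.6 ± 3.26 CPM with aIL2RB, where it rose by 0.70 (adjusted p = 0.00235). It was 1 of 4 markers of MC38 and epithelial cells called there, and the keratins Krt8 (-0.9), Krt18 (-1.47) and Krt19 (-0.99) were not called. The part of these cells in the changes of Eng, Flt1, Cdh5 and Cldn5 was not tested.

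A ratio of 2 genes within a tumor does not depend on library size. Each gene was therefore set against Cdh5 of the same tumor, and the log2 ratios were compared between groups by two-sided permutation tests, exact except for 11 against 11 tumors, adjusted over 90 tests of 9 genes in 10 pairs of groups. The log2 ratio of Eng to Cdh5 was -0.32 ± 0.17 with aPD1, -0.77 ± 0.17 with aPD1 + aGMCSF, -0.87 ± 0.18 with aPD1 + aIL2RB and -1.01 ± 0.30 with both, beside -0.63 ± 0.13 in isotype control tumors. All 11 aPD1 + aIL2RB tumors, at -1.12 to -0.57, lay below all 6 aPD1 tumors, at -0.52 to -0.07. The differences from aPD1 were -0.45 (exact permutation test, adjusted p = 0.00899), -0.55 (adjusted p = 0.00727) and -0.69 (adjusted p = 0.00899). Cdh5 itself was called higher than with aPD1 in both groups given aIL2RB (0.2 and 0.32), where Eng was called lower (-0.37 in each). In those groups any ratio to Cdh5 includes the rise of Cdh5, and the ratio of Eng is no result independent of these calls.

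Pecam1 relative to Cdh5 was also lower with aPD1 + aIL2RB than with aPD1, at -0.35 ± 0.17 against 0.12 ± 0.20, a difference of -0.47 (exact permutation test, adjusted p = 0.00899). Plvap relative to Cdh5 was lower with aPD1 + aGMCSF, by -0.33 (adjusted p = 0.036 in the exact permutation test). That call was kept in 32 of 42 omissions of a single tumor, and with Pecam1 as the reference gene the difference was 0.04. The ratio of Flt1 to Cdh5 was called in no pair of groups. In all, 5 of the 90 tests passed. Within a single set none did, and there the smallest p of a comparison with aPD1 is 0.0119 to 0.0286. With Pecam1 as the reference gene 15 of 90 passed, but the differences of Eng from aPD1 shrank to -0.08 with aGMCSF, -0.08 with aIL2RB and -0.24 with both, and only the last was called. The lower ratio of Eng with a single blocking antibody was thus called relative to Cdh5 and not relative to Pecam1.

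**Figure D3:**
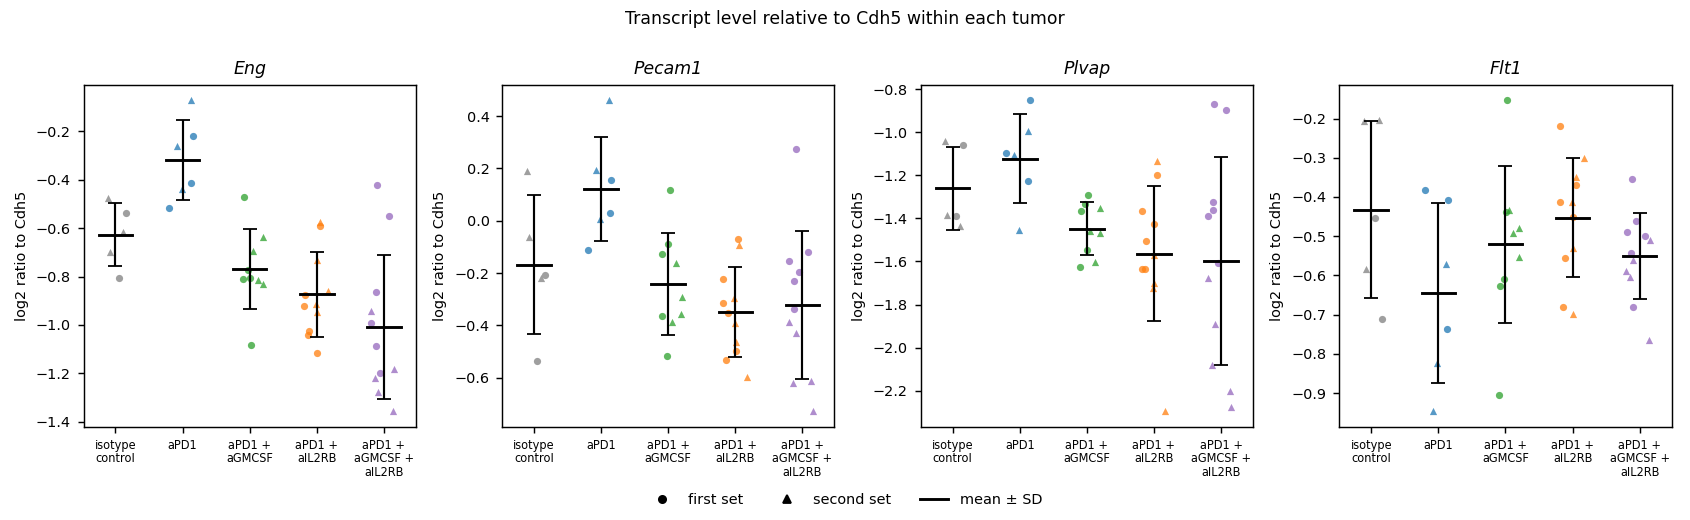
Log2 ratio of Eng, Pecam1, Plvap and Flt1 to Cdh5 in each tumor, by group, with mean ± SD. Eng lies highest with aPD1 (-0.32 ± 0.17) and lowest with aPD1 + aGMCSF + aIL2RB (-1.01 ± 0.30), and the triangles of the second set lie lowest for Plvap in that group.

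Against isotype control, more of the 10 genes were called with both blocking antibodies than in the other groups. No gene was called between both antibodies and aPD1 + aIL2RB, so a broader rise than with aIL2RB was not shown. With both antibodies 6 of the 10 genes were called against isotype control, all higher, where 10.2% of all genes were called and 5.69% were higher. They were the VEGF receptors Kdr and Flt1, the angiopoietin receptor pair Tek and Tie1, and the junction genes Cdh5 and Esam. Eng, Plvap, Pecam1 and Cldn5 were not called. Eng had a change of 0.13 ± 0.11 there.

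Cdh5 had 57.5, 53.0, 54.0, 40.9 and 60.0 CPM in isotype control tumors and 66.0 to 83.4 CPM with both antibodies (median 75.0). The groups did not overlap. The log2 fold change was 0.49 ± 0.08 (adjusted p = 0.000187).

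Kdr, with 32.3 to 43.2 CPM (median 36.6), also lay above every isotype control tumor and changed by 0.55 ± 0.12 (adjusted p = 0.00362). Tie1 measured 8.97, 10.0, 10.0, 8.06 and 10.9 CPM in isotype control tumors and 11.9 to 18.7 CPM (median 14.9) with both antibodies. Here too no tumors overlapped, and the change was 0.65 ± 0.14 (adjusted p = 0.00426).

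Tek went from 1.95 ± 0.707 to 4.27 ± 1.17 CPM, a log2 fold change of 1.13 ± 0.29 (adjusted p = 0.0122). Esam went from 9.95 ± 1.81 to 14.4 ± 1.79 CPM (0.53 ± 0.14, adjusted p = 0.0139), and Flt1 from 39.3 ± 5.65 to 51.0 ± 5.86 CPM (0.38 ± 0.10, adjusted p = 0.0137). For these 3 genes the ranges of the groups overlapped. Without isotype control replicate 4 none of them was called (adjusted p = 0.0718 for Tek, 0.074 for Esam and 0.0733 for Flt1), and the count fell to 3. Flt1 was also lost without isotype control replicate 2 (adjusted p = 0.0711).

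Of the markers of other cells in this comparison, 4 of 8 fibroblast markers were higher, with a summed level of 2650 to 5220 CPM in isotype control tumors and 4970 to 6580 CPM with both antibodies. T and NK cell markers were lower in 4 of 8, and leukocyte and macrophage markers gave no calls. Of 8 skeletal muscle markers 1 was higher, and their summed level was 0.327 to 39.3 CPM in isotype control tumors and 1.35 to 243 CPM with both antibodies. The part of these cells in the rise of the 6 genes was not tested.

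With aPD1 + aIL2RB, 3 genes were higher than in isotype control, where 3.20% of all genes were called and 1.70% were higher. They were Cdh5 (0.37 ± 0.08, adjusted p = 0.00695), Flt1 (0.34 ± 0.10, adjusted p = 0.0431) and Kdr (0.40 ± 0.12, adjusted p = 0.0481). None was called without isotype control replicate 4, where Cdh5 had 0.28 (adjusted p = 0.0729), and the calls of Flt1 and Kdr were lost without any of 12 and 26 single tumors. These calls were kept under 11 (Cdh5), 6 (Flt1) and 4 (Kdr) of 12 other settings. T and NK cell markers were lower in 6 of 8 and fibroblast markers higher in 2 of 8 in the same comparison, with summed levels of 57.2 to 68.2 and 2650 to 5220 CPM in isotype control tumors and 3.78 to 43.8 and 4590 to 6390 CPM with aPD1 + aIL2RB, and their part was not tested.

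With aPD1 + aGMCSF no gene was called, and 0% of all genes were, although 938 had an unadjusted p under 0.05 in edgeR. DESeq2 called none of the 10 either. The log2 fold changes of the 10 ran from 0.06 to 0.45.

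In the wider lists, 26 of 76 genes were higher with both antibodies than in isotype control and 1 lower (35.5% called). Over all genes 10.2% were called and 5.69% were higher. The median log2 fold change of the lists was 0.32 beside 0.016 over all genes. Receptors gave 8 of 14 higher, among them the apelin receptor Aplnr (1.27), Ptprb (0.71), Tspan7 (0.60), S1pr1 (0.53), Flt4 (0.52) and Nrp1 (0.27). Surface and matrix genes gave 10 of 20 higher, with Nid1 (0.58), Sparcl1 (0.58), Col4a1 (0.37) and Col4a2 (0.37) having the smallest p. Of 13 transcription factors 3 were higher, Tal1 (1.08), Sox17 (1.02) and Erg (0.55). The call of Erg was kept under 3 of 12 other settings and in 22 of 42 omissions of a single tumor. Among ligands, Dll4, the Notch ligand of tip cells, rose (0.56) and Vegfb fell (-0.28), while Vegfa was not called (-0.16, adjusted p = 0.155). Of 10 mural cell genes 4 were higher, Abcc9 (1.1), Pdgfrb (0.61), Rgs5 (0.51) and Des (1.90). The call of Des was kept under 7 of 12 other settings. Over all lists the number called was 10 without isotype control replicate 4 and 16 without isotype control replicate 2.

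Against aPD1 alone, both antibodies gave 22 genes higher and 11 lower of 76 (43.4%), aIL2RB 19 and 12 (40.8%), and aGMCSF 12 and 10 (28.9%). Over all genes 27.4%, 27.4% and 13.5% were called. With both antibodies 13.1% of all genes were higher and 14.3% lower, so that the 11 genes lower in the lists were close to the share over all genes. The genes named next are those of both antibodies. The ligands Vegfd (0.43), Vegfc (0.41), Dll4 (0.51) and Vegfa (0.18) rose and Pdgfb (-0.45), by which endothelium recruits pericytes, fell. The call of Vegfa was kept under 3 of 12 other settings and in 29 of 42 omissions of a single tumor, while that of Vegfd was kept under all of these. Flt4, the receptor of Vegfc and Vegfd, rose by 0.52 ± 0.13 (adjusted p = 0.00212). Tspan7, a tetraspanin, had the smallest p of the receptors, going from 11.2 ± 1.19 to 20.5 ± 2.96 CPM (0.87 ± 0.10, adjusted p = 7.16e-08), and its groups did not overlap. Plxnd1 (0.42) rose, and Acvrl1 (-1.0) and Notch1 (-0.54) fell. Over other settings Acvrl1 ranged from -1.65 to -0.47, Notch1 from -0.88 to -0.26 and Pdgfb from -0.79 to -0.16. Each of these calls was kept under 11 of 12. Basement membrane collagens Col4a1 (0.40) and Col4a2 (0.28), the matrix protein Sparcl1 (0.56) and endomucin, Emcn (0.44), rose. Of the transcription factors Gata2 (0.38) and Foxf1 (0.27) rose and Fli1 (-0.62) and Lmo2 (-0.53) fell. Other settings gave -1.03 to -0.28 for Fli1, -0.72 to -0.34 for Lmo2, 0.11 to 0.42 for Col4a2 and 0.23 to 0.56 for Emcn. These calls too were kept under 11 of 12.

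Genes through which endothelium recruits leukocytes were lower with both antibodies than with aPD1 in 3 of 5. Icam1 fell from 36 ± 6.23 to 15.9 ± 6.93 CPM (-1.19 ± 0.18, adjusted p = 3.81e-06), Selp, or P-selectin, by 1.37 and Vcam1 by 0.21 on the log2 scale. Over other settings Icam1 ranged from -1.85 to -0.7 and was called in 12 of 12. The value of Selp ranged from -3.32 with the second set alone to -0.05 with the first, and its call was kept under 5 of 11 other settings and in 32 of 42 omissions of a single tumor. Icam1 is made by leukocytes as well, whose markers fell in the same comparison, and its source was not tested.

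Mural cell genes split in this comparison. Of the genes used to recognise pericytes, those that rose with the smallest p were Abcc9 (1.23 ± 0.18, adjusted p = 3.31e-06), Kcnj8 (1.27 ± 0.20, adjusted p = 8.08e-06), which pairs with it in a potassium channel, and Pdgfrb, the receptor for PDGF-B (0.80). Abcc9 stood at 8.42 to 16.2 CPM with aPD1 and 20.6 to 38 CPM with both antibodies, with no overlap. The contractile gene Acta2 fell (-1.45 ± 0.26, adjusted p = 5.2e-05). In all 4 of the 10 mural cell genes tested were higher and 2 lower. The pericyte genes Rgs5 (0.21, adjusted p = 0.198), Notch3 (0.14) and Higd1b (0.50, adjusted p = 0.378), named after their values were seen, were not called. Fibroblasts also carry Pdgfrb, and their 8 markers gave 4 higher and 1 lower in the same comparison.

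**Figure D4:**
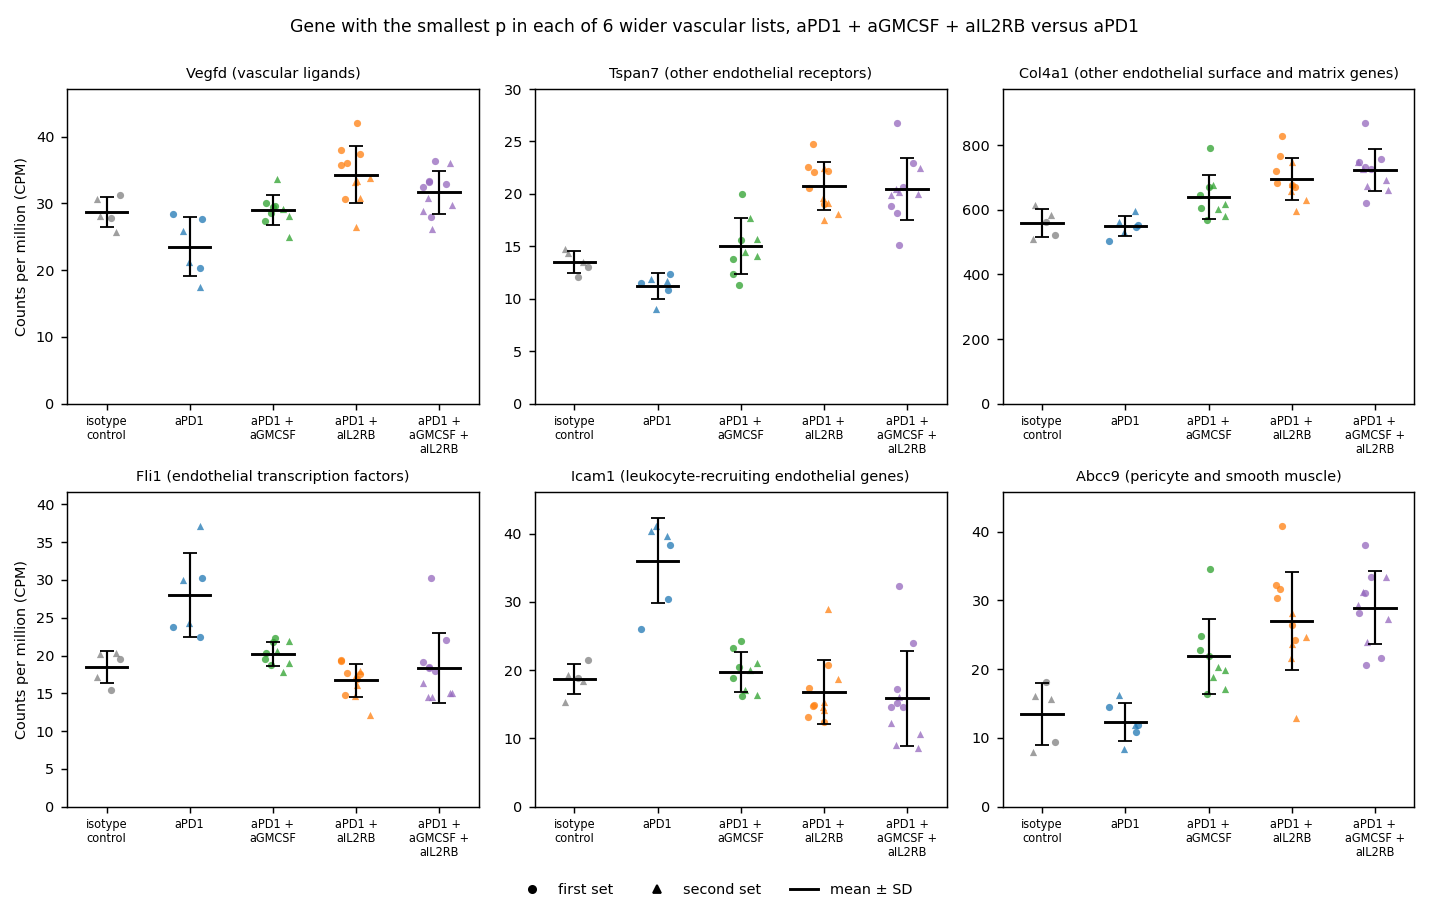
Levels (CPM, linear axis from 0) of the gene with the smallest p, for aPD1 + aGMCSF + aIL2RB against aPD1, in each of 6 wider vascular lists, with mean ± SD and sets marked as before. Vegfd, Tspan7, Col4a1 and Abcc9 are higher and Fli1 and Icam1 lower than with aPD1 alone.

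Among the 3 groups given blocking antibodies few differences were called. Between aPD1 + aIL2RB and aPD1 + aGMCSF no gene was called (1.52% of all genes), and between both antibodies and aPD1 + aIL2RB none was called (0.00591% of all genes). The unadjusted p was under 0.05 in 2288 and 1212 of all genes in those comparisons, and DESeq2 called none of the 10 in either. Cdh5 was higher with both antibodies than with aPD1 + aGMCSF (0.25 ± 0.07, adjusted p = 0.038), 1 of the 10 genes, where 2.13% of all genes were called and 0.98% were higher. Tek (0.68, 95% interval 0.22 to 1.13), Tie1 (0.36, 0.13 to 0.59), Esam (0.35, 0.12 to 0.57) and Kdr (0.32, 0.12 to 0.51) had values as large there and were not called (adjusted p = 0.108, 0.0894, 0.096 and 0.0712). The call of Cdh5 was lost without any of 12 single tumors, and without aPD1 + aGMCSF replicate 5, the tumor with the most Flt1 and Cldn5, 5 genes were called.

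Whether the 2 blocking antibodies acted independently was tested by their interaction among the 4 groups given aPD1. None of the 10 genes was called, where 8.34% of all genes were. An unadjusted p under 0.05 was found in 3956 of the 16932 genes tested. Eng (0.40 ± 0.13, adjusted p = 0.0546) and Pecam1 (0.46 ± 0.16, adjusted p = 0.0704) came nearest. A positive value means that both antibodies together left the gene higher than the sum of their single log2 changes. Both were called with DESeq2 (adjusted p = 0.0348 for Eng and 0.0449 for Pecam1), and in edgeR once the model held a term for the set (0.045 and 0.0497).

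Averaged over the groups, Plvap was the 1 gene called between the sets. It was lower in the second, by 0.31 ± 0.08 on the log2 scale (adjusted p = 0.00429), 1 of the 10 where 25.1% of all genes were called and 11.5% were lower. The count was thus no more than the share over all genes. Because the sets were known from these same data, p-values between sets describe differences and are no independent test. The same limit holds for the interaction with set given below. The difference lay mainly in the group given both antibodies, in which Plvap had 24.6 to 37.1 CPM in the first set (6 tumors) and 14.7 to 22.7 CPM in the second (5 tumors), without overlap. In the aPD1 group the means were 27.6 ± 6.75 and 27.6 ± 4.06 CPM.

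The effect of both antibodies relative to aPD1 accordingly differed between sets for 3 genes, by a test of the interaction itself, in which 9.18% of all genes were called and 6.55% with a lower change in the second set. For Plvap the log2 fold change was 0.20 ± 0.14 in the first set and -0.61 ± 0.17 in the second (adjusted p = 0.024 for the difference). Pecam1 had 0.24 ± 0.16 and -0.55 ± 0.11 (adjusted p = 0.0132), and Eng -0.08 ± 0.14 and -0.72 ± 0.09 (adjusted p = 0.0214). For Cdh5 the change was 0.40 in the first set and 0.23 in the second, and for Flt1 it was 0.40 in both, with no difference called.

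Macrophage transcripts moved the same way with set. Their summed level in the group given both antibodies was 2890 to 4310 CPM in the first set and 2020 to 2400 CPM in the second, and leukocyte markers stood at 404 to 927 and 313 to 412 CPM. In aPD1 tumors the macrophage means were 4200 ± 934 and 5280 ± 1110 CPM. Averaged over the groups, other markers also differed between sets. The keratins Krt8 (log2 change 4.66), Krt18 (4.09) and Krt19 (4.16) were higher in the second set, and Shisal2b was not called. Red cell markers were higher in the second (log2 change 1.65 for Hbb-bs, 1.55 for Hba-a2, 1.56 for Hbb-bt and 0.99 for Alas2). Cd3e (-0.98), Cd3d (-1.0), Cd8a (-1.11), Cd8b1 (-0.84) and Nkg7 (-0.99) were lower, and Ifng, Gzmb and Prf1 were not called. The mural cell genes Pdgfrb, Rgs5, Cspg4 and Des were lower, Acta2 was higher and the others were not called. The platelet markers Pf4 (0.3) and Ppbp (1.14) were higher, and the other platelet markers tested were not called. Among fibroblast markers Col3a1 (-0.33), Dcn (-0.16) and Pdgfra (-0.31) were lower and the others were not called. Myh1 of skeletal muscle was lower (-3.38), and the other muscle markers were not called. The part of these cells in the set difference of Pecam1, Plvap and Eng was not tested.

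Promoters were read from RefSeq sequences of build GRCm38.p6, which held 6 of the 10 genes (Eng, Tek, Tie1, Kdr, Flt1 and Cldn5). The 250 bases before the start are printed for the 3 of these that changed with aPD1 + aIL2RB relative to aPD1, Eng lower and Flt1 and Cldn5 higher, to set side by side regulatory regions of genes that moved apart. Capitals mark the letters AGGAAG or, on the other strand, CTTCCT, the core bound by ETS factors such as ERG and FLI1.
Eng promoter, chr2:32646345-32646594, plus strand: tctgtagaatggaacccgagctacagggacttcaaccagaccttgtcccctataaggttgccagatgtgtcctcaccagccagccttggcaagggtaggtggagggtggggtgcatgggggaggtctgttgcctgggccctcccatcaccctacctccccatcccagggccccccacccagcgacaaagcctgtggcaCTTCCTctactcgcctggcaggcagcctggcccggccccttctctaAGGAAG
Flt1 promoter, chr5:147726012-147726261, minus strand: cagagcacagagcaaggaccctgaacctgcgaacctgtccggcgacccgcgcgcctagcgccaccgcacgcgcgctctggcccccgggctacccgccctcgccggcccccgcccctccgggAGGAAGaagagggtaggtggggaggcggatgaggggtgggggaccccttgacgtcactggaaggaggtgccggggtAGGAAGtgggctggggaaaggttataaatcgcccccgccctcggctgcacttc
Cldn5 promoter, chr16:18776597-18776846, plus strand: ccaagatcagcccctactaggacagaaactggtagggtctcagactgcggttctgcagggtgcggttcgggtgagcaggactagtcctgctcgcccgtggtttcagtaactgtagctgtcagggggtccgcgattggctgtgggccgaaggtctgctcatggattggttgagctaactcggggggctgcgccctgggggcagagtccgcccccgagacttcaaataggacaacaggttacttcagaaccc

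The ETS core stood in the promoters of Eng, Flt1 and Tie1, 3 of 6, beside 29.5% of all 32851 promoters of this length. Eng and Flt1 held 2 matches each, though they changed in opposite directions, and Cldn5 held none. The letters CCGGAA, another ETS core, were found in Kdr alone (12.0% of all promoters), and the GATA core AGATAA (9.99%) and the SOX core ACAATG (10.7%) in none of the 6, on either strand. No matches of different motifs overlapped. A match of letters describes the window and not binding.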

How the data were processed

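Members and gene lists were chosen with earlier results of these data known. Poly(A) RNA of 42 tumors was sequenced as paired reads. The authors aligned reads with Bowtie 1.2.3 to transcriptomes of the Collaborative Cross founder strains (GENCODE annotation, GRCm38) and deposited expected counts per gene, estimated with gbrs, summed over haplotypes and not normalized. Reads shared between genes were divided, so 15.2% of values are not whole, but none of the 10 genes had a fractional count.

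Counts were rounded and fitted in R 4.3.3 with edgeR 4.0.16 (TMM, filterByExpr with a minimum count of 10 and total of 15, leaving 16932 genes; glmQLFit and glmQLFTest). All 42 tumors entered 1 model with a coefficient per group. Adjustment over genes followed Benjamini and Hochberg, separately per comparison, with a threshold of 0.05. Log2 CPM used a prior count of 2. Standard errors came from the fold change and its F value, and intervals are normal 95% intervals. P-values measure the spread between tumors, each from its own mouse. Ratios were tested in Python 3.11.15 with scipy 1.17.1, with 100000 permutations where both groups had 11 tumors. Coordinates and exon lengths were taken from a GENCODE annotation of the same build.

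Replicate numbers of the labels did not pair tumors: the mean correlation of deviations was 0.035 for the same number in different groups. Named genes were all 10 members, up to 4 genes with the smallest p from each wider list per comparison, and Vegfa, Angpt1, Angpt2, Pgf, Flt4 and Nrp1 in any case. The 10 genes most like the members and the single defining marker of each other cell type were named too. On simulated data for aPD1 against isotype control with 16932 genes, 51 of 100 genes changed by 0.5 on the log2 scale and 68 of 100 changed by 1.0 were recovered. Alternatives were other size factors (DESeq2 1.42.0, library size), other filters, only the groups compared, DESeq2, a replicate block, the set as a term, each set alone, omission of the rRNA genes and omission of each tumor.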

Additional observations from a re-analysis of the deposited data

Results flagged for a closer look

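Flt1 and Plvap each had 1 tumor far above the rest of its group, aPD1 + aGMCSF replicate 5. It had 64.9 CPM of Flt1 where the next tumor had 50.4, a gap of 0.505 of the group's range, and 29.5 CPM of Plvap where the next had 23.8, a gap of 0.518. The critical value of Dixon's test for 9 tumors is 0.493. Chance exceeds it in about 5% of groups, and 30 groups were examined.

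The effect of both blocking antibodies relative to aPD1 differed between the sets for 3 genes. The difference, second minus first set, was -0.78 ± 0.21 on the log2 scale for Pecam1 (edgeR adjusted p = 0.0132), -0.62 ± 0.18 for Eng (adjusted p = 0.0214) and -0.80 ± 0.23 for Plvap (adjusted p = 0.024). Of 100 such tests, 10 genes in 10 comparisons, these 3 were called, in a comparison where 9.18% of all genes were called and 6.55% with a lower change in the second set. The sets themselves were known from an earlier analysis of these same data.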

How the results depend on the processing

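The number of the 10 genes called depended on the set, the filter, the scaling and single tumors. With the first set alone it was 0 for aPD1 against isotype control, 0, 0 and 1 for aGMCSF, aIL2RB and both against aPD1, 1 and 1 for aIL2RB and both against isotype control, and 0 for both against aGMCSF. With the second set alone it was 2 for aGMCSF against aPD1, 1 and 3 for aIL2RB and both against isotype control, and 1 for the interaction. Fewer tumors entered each of these fits. With library size only it was 1 for aPD1 against isotype control, 5 for both against aPD1 and 1 for aIL2RB against isotype control. With no filter it was 1, 1 and 0 for aPD1 and aIL2RB against isotype control and both against aGMCSF, and with a total of at least 5 counts 1 and 0 for the last 2. Without the 5 rRNA genes it was 1 for aIL2RB against isotype control and 1 for the interaction. For both against aGMCSF it was 2 with only the groups compared and 2 with DESeq2. For the interaction it was 2 with at least 10 counts in every tumor, 2 with the set as a term and 2 with DESeq2. Apart from the construction named, the cause was not tested. The numbers did not pair tumors, and with a replicate block the counts were 5 for both against aPD1 and 0 for the set, and the change of Plvap with both against aPD1 was 0.04. For the ratio to Cdh5, 15 tests were called with Pecam1 as reference, and 0 with the first set alone, the second set alone or the replicate block. The smallest p there was 0.0119, 0.0159 and 0.00781 over 90 tests. A single set allows no p under 0.0119 in a comparison with aPD1, so its count of 0 there says nothing about stability. With the replicate block at most 6 aPD1 tumors can be matched by number, and the smallest adjusted p was 0.312. The count of 0 under the block is therefore not read as a loss either.

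Omitting each tumor in turn gave 1 to 3 genes for aPD1 against isotype control, 1 to 2, 2 to 5 and 3 to 5 for aGMCSF, aIL2RB and both against aPD1, 0 to 4 and 3 to 7 for aIL2RB and both against isotype control, 0 to 1 for aIL2RB against aGMCSF, 0 to 5 for both against aGMCSF, 0 to 2 for the interaction and 4 to 8 for the ratios. Directions turned with the first set alone for Flt1 (0.11), Angpt2 (-0.08) and Lmo2 (-0.03) with aPD1 against isotype control and for Pecam1 (0.24) and Plvap (0.20) with both against aPD1. They also turned in the second set alone for Eng with both against isotype control (-0.07) and for Notch3 (-0.27) and Rgs5 (-0.08) with both against aPD1, for Flt1 with aPD1 without isotype control replicate 3 (0.03, with a range from -0.11 to 0.03 over omitted tumors), and for the ratio of Plvap with aGMCSF under Pecam1 as reference (0.04). Over the settings other than omitted tumors, the wider lists gave 0 to 21 calls for aPD1 against isotype control, 2 to 27, 22 to 35 and 20 to 36 for aGMCSF, aIL2RB and both against aPD1, and 2 to 19 and 9 to 34 for aIL2RB and both against isotype control. Omitting each tumor gave 9 to 23, then 15 to 27, 28 to 34 and 30 to 34, then 4 to 14 and 10 to 29 in the same order. Low counts limit Tek and Cldn5 most.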

Other observations

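Lymphatic endothelial and hypoxia genes were measured beside the blood vessel genes. Of 6 lymphatic genes 3 were tested, and none was called in aPD1 against isotype control, where their summed level was 83.2 ± 12.6 CPM in isotype control and 107 ± 21.2 CPM in aPD1 tumors. Pdpn, which is also made by fibroblasts and macrophages, fell with both antibodies against aPD1 (-0.41 on the log2 scale, edgeR adjusted p = 0.00838). Of 10 hypoxia genes, 2 were lower and none higher with aPD1 than in isotype control tumors, and the same numbers held for both antibodies against isotype control, where 8.71% and 10.2% of all genes were called. Relative to aPD1, aGMCSF gave 2 hypoxia genes higher and 1 lower (13.5% of all genes called). The aIL2RB group gave 3 higher and 1 lower (27.4%), and the group given both gave 1 in each direction (27.4%). Their summed level was 902 ± 144 CPM in isotype control, 784 ± 123 in aPD1, 902 ± 146 in aPD1 + aGMCSF, 862 ± 96.8 in aPD1 + aIL2RB and 758 ± 73.4 in aPD1 + aGMCSF + aIL2RB tumors.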
